A study of Arabidopsis thaliana with 12 samples.

Results

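Glutathione S-transferase (GST) genes were described in germinating seedlings of Arabidopsis thaliana under salt. The members were the rows of the deposited count table whose gene name holds GST followed by the class letter U, F, T, Z or L and a digit, and 48 of the 33602 rows matched. They comprised 27 tau (U), 13 phi (F), 3 theta (T), 2 zeta (Z) and 3 lambda (L) genes. GSTU17 is entered in the table under another name, GST30, and therefore fell outside the rule.

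The study asked how a mutant of the calmodulin-binding transcription activator CAMTA6 germinates in salt. The 12 RNA-seq libraries form 4 groups of 3, named here camta6-5 NaCl, camta6-5 control, wild-type NaCl and wild-type control. The camta6-5 groups carry that single mutant allele of CAMTA6, and the wild type is the accession Col-0. The NaCl groups spent 16 h on MS agar with 200 mM NaCl and the control groups the same time on MS agar with 0 mM, all from cold-stratified seed sampled as pre-germinated whole seedlings. Nothing in the labels says whether replicates came from separate plates or sowings, so p-values measure the spread between these libraries.

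GSTs join the tripeptide glutathione to reactive or foreign molecules, which marks the conjugates for transport into the vacuole. The tau and phi classes are particular to plants, are inducible by many stresses and herbicide safeners, and are arranged largely in tandem arrays of duplicated genes. Theta enzymes reduce lipid hydroperoxides, zeta enzymes act in tyrosine breakdown, and lambda enzymes have thiol transferase rather than conjugating activity.

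Library totals ran from 29473212 to 35450685 counts, and the 48 genes together took 0.093 to 0.12% of the counts of a library. The share of 18S rRNA counts ran from 0.0211 to 1.03%, and the 5 libraries richest in it were camta6-5 NaCl replicates 1 and 2, camta6-5 control replicates 1 and 3 and wild-type control replicate 1. CAMTA6 averaged 43.8 ± 7.43 and 34.8 ± 1.34 CPM in the camta6-5 NaCl and camta6-5 control libraries, against 30.9 ± 2.84 and 17.8 ± 2.79 CPM in the wild-type NaCl and wild-type control libraries. Its transcript was thus higher in the libraries labelled camta6-5, by 0.96 ± 0.13 log2 without NaCl (edgeR adjusted p = 0.00662), so gene counts do not check that label, and camta6-5 is used below as the label of a library. Summed counts of 4 seed reserve genes were 9320 to 15600 and 532 to 1130 CPM in camta6-5 NaCl and camta6-5 control, against 7980 to 9620 and 407 to 670 CPM in wild-type NaCl and wild-type control. The 4 green tissue markers summed to 556 to 678, 834 to 973, 274 to 364 and 742 to 979 CPM, and the 4 root markers to 85.0 to 89.4, 118 to 157, 53.3 to 56.2 and 136 to 160 CPM, in the same order of groups. All 4 seed reserve genes rose and all 4 green tissue genes fell under NaCl in both genotypes, and of the 3 root genes tested 2 fell in camta6-5 and 3 in wild type, while WOX5 averaged at most 0.213 CPM in a group and was not tested. The endosperm gene EPR1 ran from 21.2 to 36.3, 13.7 to 17.2, 20.4 to 40.8 and 13.7 to 46.6 CPM in that order of groups and passed in neither genotype. The part of these tissue markers in the GST results was not tested. In whole seedlings, fewer cells of a type and less RNA per cell cannot be told apart.

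The GST transcript pool kept its size while its class makeup differed between NaCl and control. Levels are given here as CPM (counts adjusted for library size with TMM factors) per kb of exon where genes are compared or summed. Summed over all 48 genes, the level was 805 ± 39.1 CPM per kb in camta6-5 NaCl and 798 ± 32.6 in camta6-5 control, against 843 ± 38.2 in wild-type NaCl and 811 ± 99.4 in wild-type control (SD, n = 3 each). The tau genes summed to 569, 551 and 595 CPM per kb in camta6-5 NaCl and to 401, 444 and 360 in camta6-5 control. Every camta6-5 NaCl library lay above every camta6-5 control library. In wild type the tau sums were 612, 682 and 636 CPM per kb under NaCl and 373, 370 and 389 without it, again with no overlap. The phi sum went the other way, although single phi genes moved in both directions. The phi genes summed to 90.4, 103 and 124 CPM per kb in camta6-5 NaCl, against 245, 258 and 371 in camta6-5 control. In wild type they summed to 87.1, 87.4 and 69.4 CPM per kb under NaCl, against 277, 286 and 455 without it, so that replicate 3 of both control groups was the highest of its group. Tau genes thus made up 70.0 to 72.2% of the GST level in camta6-5 NaCl and 43.6 to 55.2% in camta6-5 control, against 75.0 to 77.0% in wild-type NaCl and 42 to 49.6% in wild-type control.

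**Figure D1:**
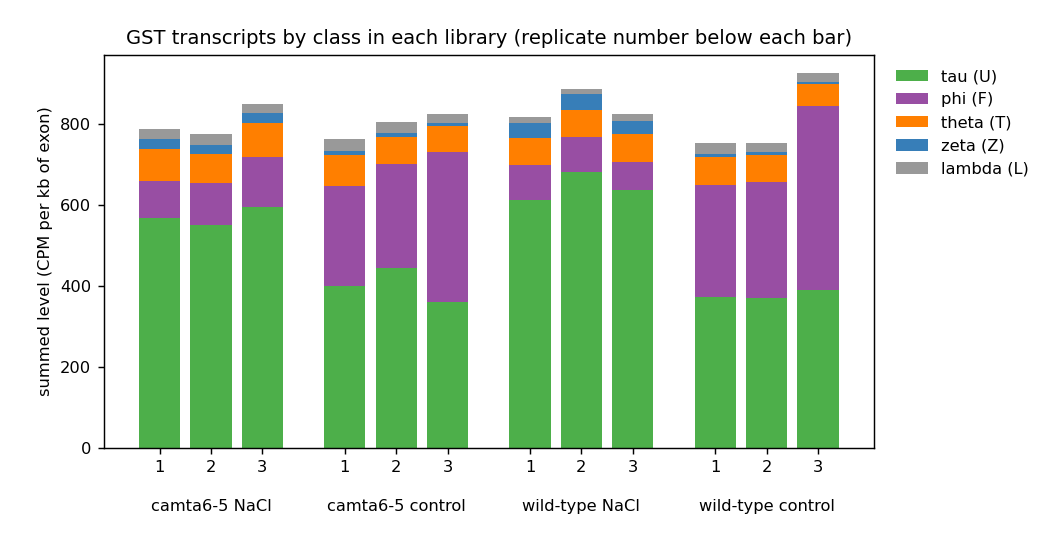
Summed level of the tau, phi, theta, zeta and lambda GST genes in each of the 12 libraries, in CPM per kb of exon, stacked by class; the number under a bar is the replicate. The total stays between 752 and 926 CPM per kb, while the phi share is at most 14.5% in the NaCl libraries and at least 32.1% in the control libraries.

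A pair of genes carried most of this pool. GSTU19, an enzyme abundant in seedlings and inducible by safeners, made up 46.0, 28.3 and 52.2% of the summed level in camta6-5 NaCl, camta6-5 control and wild-type NaCl. In wild-type control the first place went to the phi gene GSTF9 with 29%. Averaged over the 12 libraries, GSTU19 stood at 310.0 CPM per kb and GSTF9 at 121 CPM per kb, followed by the peroxisomal theta enzyme GSTT1 at 57.3 CPM per kb, GSTU7 at 49.7, GSTU5 at 39.7, GSTU13 at 33.4 and GSTF8 at 30.0. GSTZ1 and GSTL2 accounted for nearly all of their classes, with at least 99.7 and 95.3% of the class level in every group.

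Of the 48 genes, 35 had enough counts to be tested, namely 21 tau, 8 phi, 3 theta, 1 zeta and 2 lambda genes. The other 13 never exceeded 14 counts in a library, and 6 of them had fewer than 4 counts in all 12 libraries together. They were GSTU3, GSTU6, GSTU15, GSTU18, GSTU21 and GSTU23 of the tau class, GSTF4, GSTF5, GSTF11, GSTF12 and GSTF14 of the phi class, GSTZ2 and GSTL1. GSTF12, known for carrying anthocyanins and proanthocyanidins to the vacuole, had 17 counts in all. GSTF14 and GSTL1 had 0 counts in every library, which allows a level of up to 0.0287 to 0.0323 CPM per group when 3 counts over a group are taken as the limit, for counting error only.

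In camta6-5, 15 of the 35 tested genes rose under NaCl and 8 fell (edgeR quasi-likelihood test, Benjamini-Hochberg adjusted p under 0.05). These are 42.9 and 22.9% of the tested members, beside 28.2% of all 18515 tested genes called higher and 27.5% called lower in the same comparison. Changes of at least 2-fold were found for 10 of the risen and 7 of the fallen genes. The share of all genes past this limit was not counted, here or for wild type. The median size of the log2 change was 1.03 over the members and 0.36 over all genes tested. In wild type, 18 genes rose and 11 fell under NaCl, which are 51.4 and 31.4% of the members beside 37.9 and 39.6% of all genes. There 13 of the risen and 9 of the fallen changed by at least 2-fold, and the median size was 1.72 over the members and 0.691 over all genes. When the 5 libraries high in 18S rRNA were dropped, which leaves 1 library in each camta6-5 group, camta6-5 calls were lost in both directions. Among fallen members these were GSTF8 (log2 -1.16), GSTF13 (-1.23) and GSTU25 (-0.21). Among risen members they were GSTU7 (0.32), GSTU10 (0.57), GSTU12 (1.72), GSTU13 (0.31) and GSTT2 (0.42). GSTU11 (2.81) and GSTT3 (0.56) gained a call as higher in that fit. The counts describe genes that passed a filter on low counts and carry no test of the family as a whole.

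**Figure D2:**
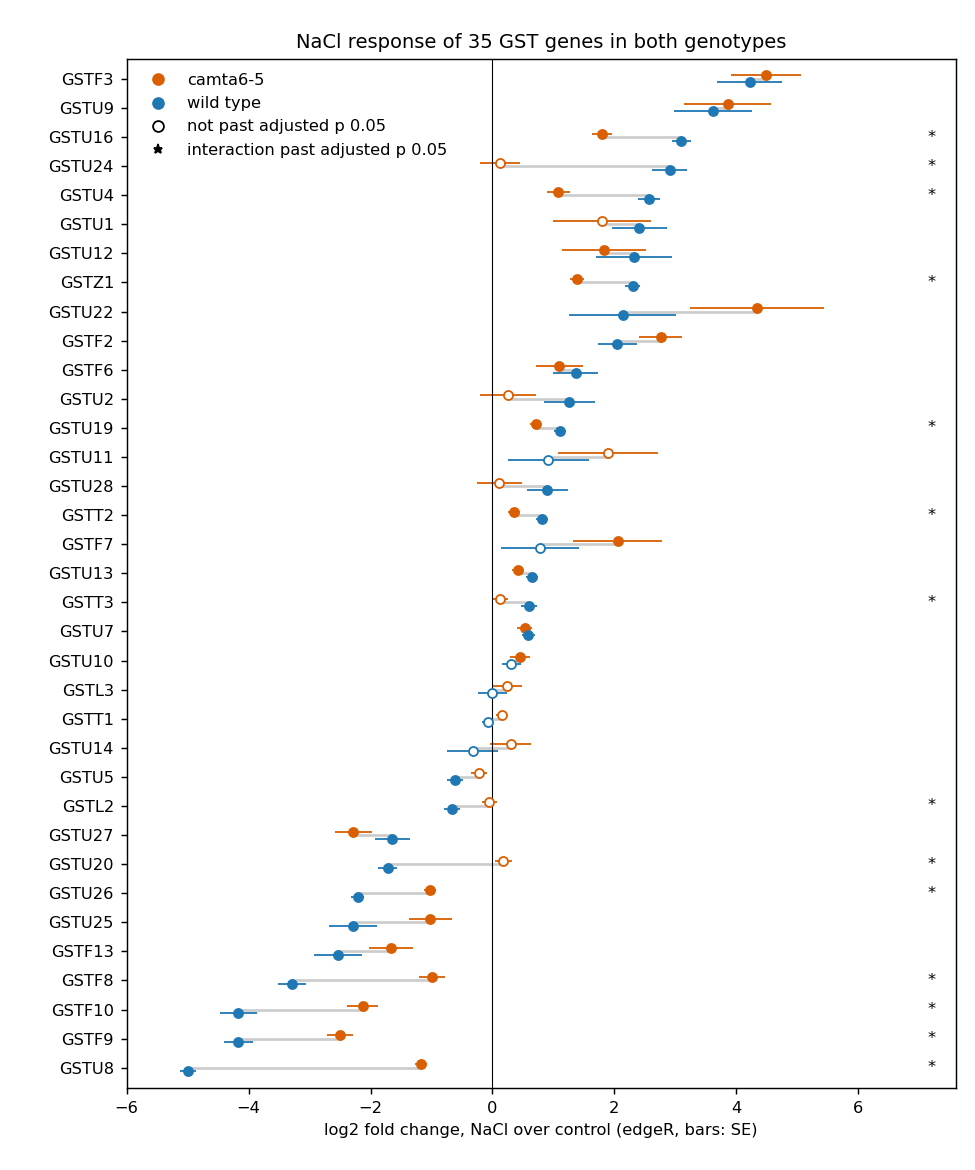
Log2 fold change, NaCl over control, of the 35 tested GST genes in camta6-5 and wild type, with SE bars; open symbols did not pass an adjusted p of 0.05, and a star marks genes whose responses differed between genotypes past that threshold. Wild-type responses run from -4.99 (GSTU8) to 4.22 (GSTF3), and stars mark 14 genes.

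Among 21 tau genes, 9 rose and 4 fell under NaCl in camta6-5, and 12 rose and 6 fell in wild type. GSTU19 (AT1G78380, TAIR10 chr1:29486413-29487906) had 414, 411 and 419 CPM in camta6-5 NaCl and 249, 292 and 220 CPM in camta6-5 control, against 463, 520 and 497 CPM in wild-type NaCl and 231, 229 and 224 CPM in wild-type control. The NaCl libraries were higher than the controls in both genotypes without overlap, and the wild-type NaCl libraries were the highest. Its log2 change was 0.71 ± 0.091 in camta6-5 (edgeR adjusted p = 3.35e-05) and 1.11 ± 0.092 in wild type (edgeR adjusted p = 1.28e-07).

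GSTU16 (AT1G59700, chr1:21936296-21937959) had 7.16, 6.72 and 8.74 CPM in camta6-5 NaCl and 2.55, 2.31 and 1.59 CPM in camta6-5 control. In wild type it had 17.5, 18.5 and 18.1 CPM under NaCl and 1.87, 2.47 and 1.95 CPM without it. The control groups overlapped, and the wild-type NaCl libraries stood above the camta6-5 NaCl ones. Its log2 changes were 1.80 ± 0.16 in camta6-5 (edgeR adjusted p = 2.35e-06) and 3.10 ± 0.16 in wild type (edgeR adjusted p = 2.53e-09). GSTU4 (AT2G29460, chr2:12626536-12627678) had the same order of groups, with 7.45, 7.09 and 8.61 CPM in camta6-5 NaCl and 4.45, 3.91 and 2.52 CPM in camta6-5 control. Its wild-type values were 17.9, 22.0 and 18.2 CPM under NaCl and 2.75, 3.94 and 3.09 CPM without it. The log2 changes were 1.08 ± 0.19 and 2.57 ± 0.18 in camta6-5 and wild type.

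GSTU24 (AT1G17170, chr1:5869846-5870840), whose enzyme acts on the explosive trinitrotoluene, rose in wild type and had close values in both camta6-5 groups. It had 1.80, 2.11 and 1.31 CPM in camta6-5 NaCl and 1.46, 2.15 and 1.16 CPM in camta6-5 control, against 12.7, 20.3 and 12.6 CPM in wild-type NaCl and 1.30, 2.81 and 1.95 CPM in wild-type control. The 3 wild-type NaCl libraries stood apart, and the other 3 groups overlapped. The log2 change was 0.13 ± 0.33 in camta6-5 (edgeR adjusted p = 0.746) and 2.91 ± 0.29 in wild type (edgeR adjusted p = 6.63e-07).

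GSTU8 (AT3G09270, chr3:2848289-2849289) had the deepest fall of the family. It stood at 4.73, 5.44 and 5.22 CPM in camta6-5 NaCl and 11.1, 11.2 and 12.3 CPM in camta6-5 control, against 0.334, 0.331 and 0.284 CPM in wild-type NaCl and 10.3, 10.3 and 9.76 CPM in wild-type control. The 3 libraries of each NaCl group lay close together, and no NaCl library overlapped a control library or the NaCl group of the other genotype. It fell 2.24-fold in camta6-5 (log2 -1.17 ± 0.094, edgeR adjusted p = 1.06e-06) and 31.7-fold in wild type (log2 -4.99 ± 0.13, edgeR adjusted p = 8.04e-11).

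GSTU20 (AT1G78370, chr1:29484269-29485290), which binds the jasmonate-conjugating enzyme FIN219 (JAR1), had 25.7, 25.8 and 27.0 CPM in camta6-5 NaCl and 20.7, 21 and 27.7 CPM in camta6-5 control. It had 10.4, 9.02 and 11.7 CPM in wild-type NaCl and 32.1, 28.7 and 41.4 CPM in wild-type control. The wild-type NaCl libraries were the lowest of the 12, and the camta6-5 groups overlapped. The log2 change was 0.18 ± 0.14 in camta6-5 (edgeR adjusted p = 0.30) and -1.72 ± 0.15 in wild type (edgeR adjusted p = 1.96e-07).

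**Figure D3:**
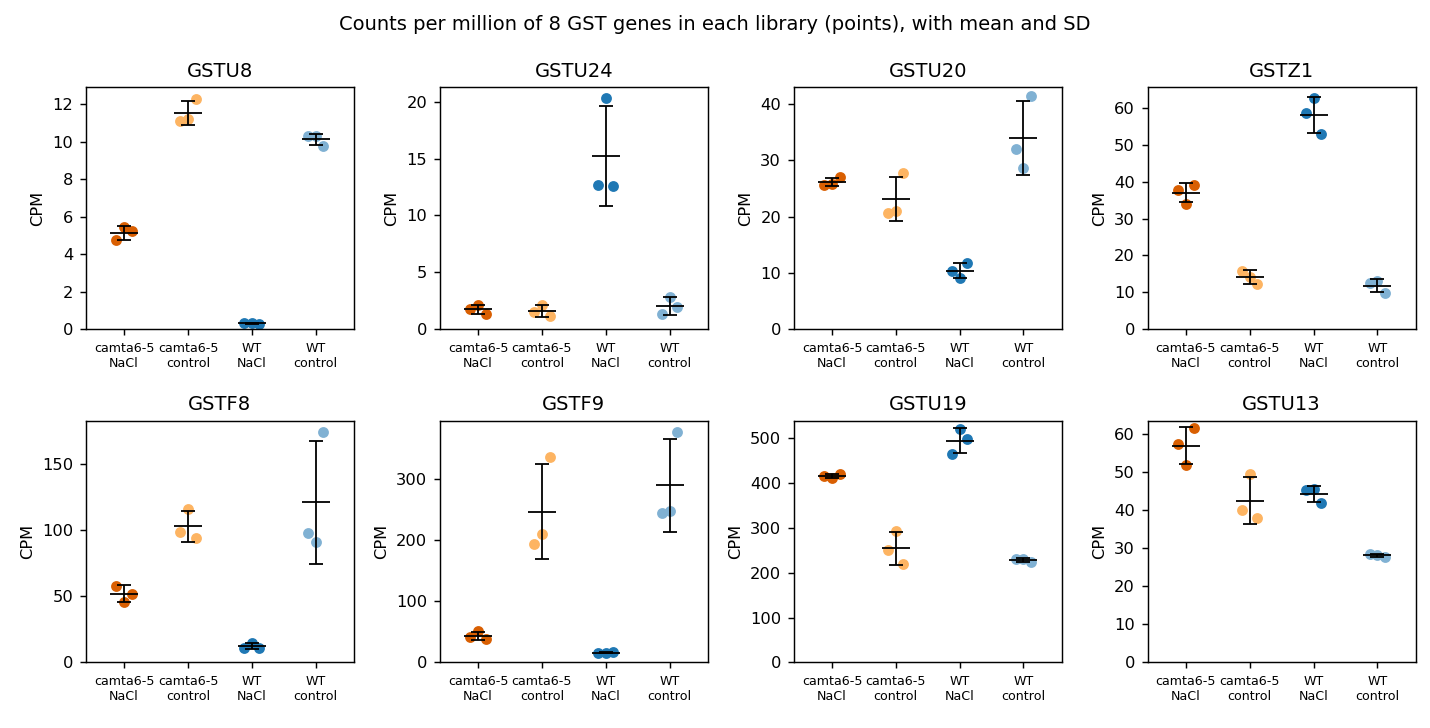
CPM of 8 GST genes in each library, grouped as camta6-5 NaCl, camta6-5 control, wild-type NaCl and wild-type control; points are libraries, and bars give mean and SD of 3. GSTU8, GSTF8 and GSTF9 are lowest and GSTU24, GSTZ1 and GSTU19 highest in wild-type NaCl; GSTU13 is lowest in wild-type control.

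The remaining tau genes changed less or were less abundant. GSTU9 averaged 3.99 ± 3.82 CPM in camta6-5 NaCl and 0.269 ± 0.192 in camta6-5 control, against 6.20 ± 0.32 in wild-type NaCl and 0.499 ± 0.13 in wild-type control. Its log2 changes were 3.86 ± 0.72 and 3.62 ± 0.64 in camta6-5 and wild type, and its camta6-5 NaCl libraries ran from 0.841 to 8.24 CPM. GSTU22, with 0.232, 2.11 and 7.10 CPM in camta6-5 NaCl and 0.218, 0.0652 and 0.166 CPM in camta6-5 control, ran over a wider range still. It was called higher in camta6-5 (4.34 ± 1.1, edgeR adjusted p = 0.00357), a call lost with limma voom, and its wild-type call (2.14 ± 0.88, edgeR adjusted p = 0.0398) was lost with DESeq2 (adjusted p = 0.0536), with limma voom (adjusted p = 0.0749) and without any of 4 single wild-type libraries. GSTU7, GSTU12 and GSTU13 rose in both genotypes, GSTU10 in camta6-5 and GSTU1, GSTU2 and GSTU28 in wild type. Of these calls, those of GSTU10 and GSTU12 in camta6-5 were lost in 8 and 6 of 22 alternatives, and those of GSTU28 and GSTU2 in wild type in 5 and 2 of 21. Those of GSTU10 and GSTU28 were lost with DESeq2 too. The camta6-5 calls of GSTU7 and GSTU13 were lost only without the 5 libraries high in 18S rRNA (log2 0.32 and 0.31). GSTU26 and GSTU27 fell in both genotypes, as did GSTU25, and the auxin-inducible GSTU5 fell in wild type, with 38.2, 35.8 and 34.0 CPM in wild-type NaCl and 51.8, 47.5 and 65.5 CPM in wild-type control. GSTU11 and GSTU14 passed in neither genotype in edgeR. With DESeq2, GSTU11 (1.91, adjusted p = 0.0376) and GSTU1 (1.84, adjusted p = 0.047) were called higher under NaCl in camta6-5. GSTU17, outside the rule by its name, averaged 1.92 ± 0.387 CPM in camta6-5 NaCl and 1.85 ± 0.252 in camta6-5 control, against 10.8 ± 3.29 in wild-type NaCl and 3.42 ± 1.26 in wild-type control. A call in 1 genotype alone does not show a difference between genotypes, which is tested further on.

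**Figure D4:**
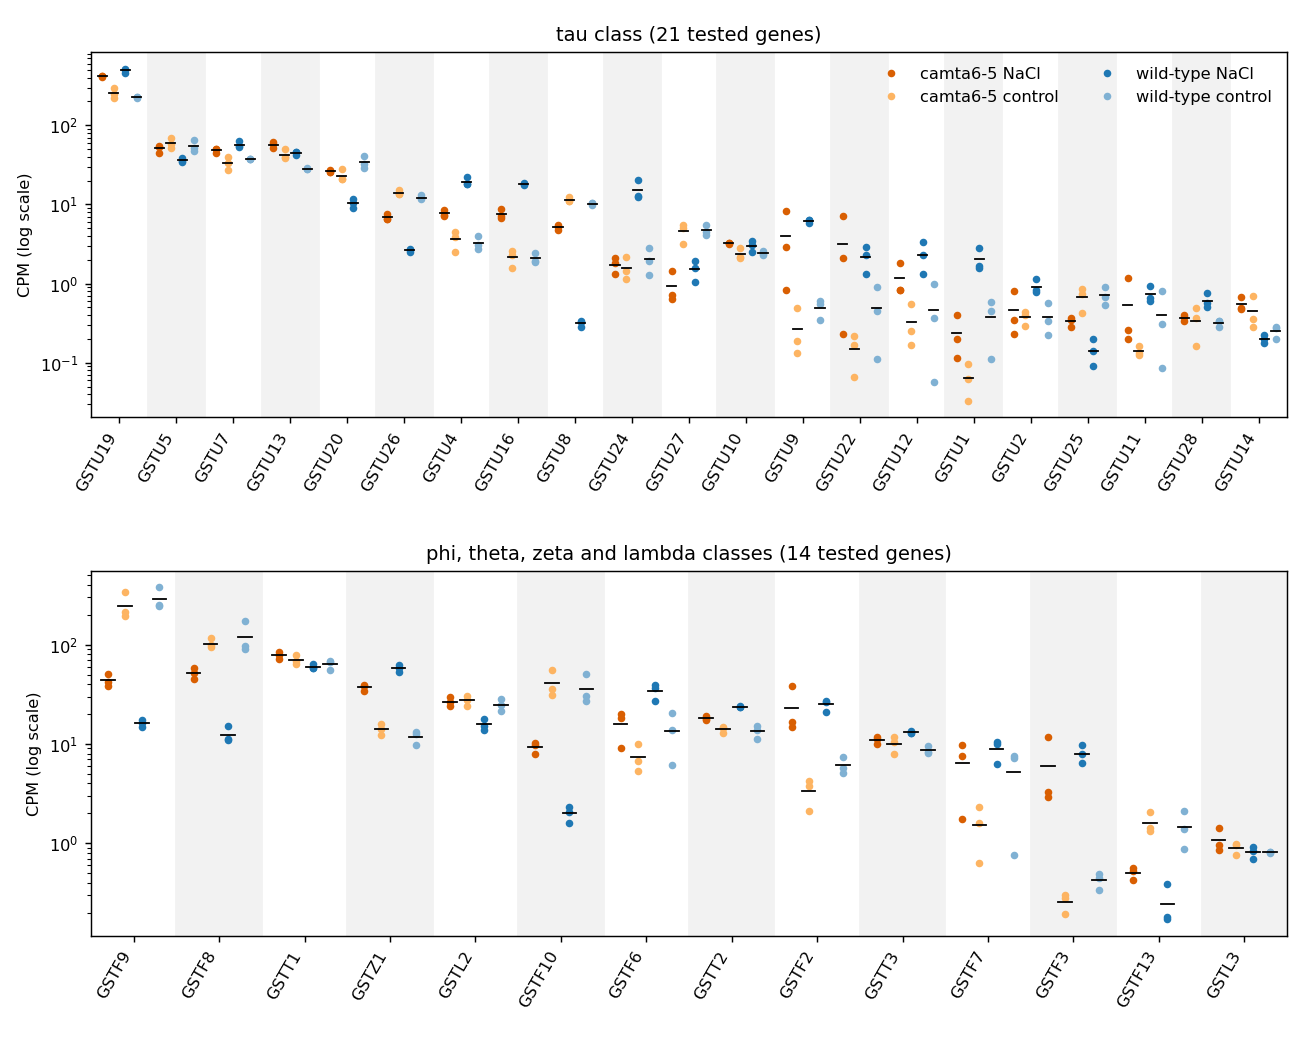
CPM, on a log scale, of the 35 tested GST genes in each library, ordered within each panel by mean CPM, which is not adjusted for gene length; points are libraries, black lines are group means. The groups follow the order camta6-5 NaCl, camta6-5 control, wild-type NaCl, wild-type control; points lie close together for GSTU8 and far apart for GSTU22 in camta6-5 NaCl, where they run from 0.232 to 7.10 CPM.

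Of the 8 tested phi genes, 4 rose and 4 fell in camta6-5, and 3 rose and 4 fell in wild type. The fallen ones included the 3 with the highest control levels. GSTF9 (AT2G30860, chr2:13138997-13140245), which also has glutathione peroxidase activity, had 41.9, 51.1 and 38.2 CPM in camta6-5 NaCl and 194, 211 and 337 CPM in camta6-5 control, against 16.1, 14.8 and 17.5 CPM in wild-type NaCl and 245, 248 and 378 CPM in wild-type control. All NaCl libraries lay far below all control libraries, and those of wild type below those of camta6-5. The log2 change was -2.50 ± 0.22 in camta6-5 (edgeR adjusted p = 1.68e-06) and -4.17 ± 0.24 in wild type (edgeR adjusted p = 4.93e-09).

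Its neighbour GSTF10 (AT2G30870, chr2:13141357-13142613), a protein that binds the receptor kinase BAK1, had 10.3, 7.83 and 9.75 CPM in camta6-5 NaCl and 35.9, 31.0 and 55.2 CPM in camta6-5 control. In wild type it had 2.06, 1.59 and 2.33 CPM under NaCl and 30.2, 27.0 and 51.1 CPM without it. As for GSTF9, both NaCl groups lay below all control libraries, wild-type NaCl was the lowest, and replicate 3 was the highest in both control groups. The log2 changes were -2.13 ± 0.25 and -4.17 ± 0.30 in camta6-5 and wild type. GSTF8 (AT2G47730, chr2:19556326-19559463), a stress-inducible enzyme with a plastid form, had 58.0, 45.4 and 52.0 CPM in camta6-5 NaCl and 98.1, 116 and 94.0 CPM in camta6-5 control, against 11, 15 and 11.1 CPM in wild-type NaCl and 97.4, 90.9 and 174 CPM in wild-type control. The NaCl libraries of camta6-5 lay between the wild-type NaCl libraries and the controls of both genotypes. Its log2 changes were -0.99 ± 0.21 (edgeR adjusted p = 0.00149) and -3.29 ± 0.23 (edgeR adjusted p = 2.91e-08), and the call in camta6-5 was lost without the 5 libraries high in 18S rRNA (-1.16, adjusted p = 0.0545). GSTF13 averaged 0.506 ± 0.0724 and 1.61 ± 0.393 CPM in camta6-5 NaCl and camta6-5 control, against 0.247 ± 0.123 and 1.46 ± 0.616 CPM in wild-type NaCl and wild-type control.

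The phi genes that rose in either genotype are 2 pairs of near-identical copies. GSTF2, which binds indole compounds such as camalexin, had 14.8, 16.5 and 37.9 CPM in camta6-5 NaCl and 4.26, 3.78 and 2.13 CPM in camta6-5 control, against 26.7, 27.3 and 21.1 CPM in wild-type NaCl and 5.10, 5.71 and 7.43 CPM in wild-type control. GSTF3 had 3.25, 2.90 and 11.7 CPM in camta6-5 NaCl and 0.280, 0.196 and 0.299 CPM in camta6-5 control, against 9.67, 7.91 and 6.37 CPM in wild-type NaCl and 0.340, 0.489 and 0.447 CPM in wild-type control. Both genes were above their controls in every NaCl library, and camta6-5 NaCl replicate 3 was the highest of all for both. The log2 changes of GSTF3 were 4.49 ± 0.58 in camta6-5 and 4.22 ± 0.53 in wild type, and those of GSTF2 were 2.76 ± 0.35 and 2.05 ± 0.32. GSTF6, which takes part in camalexin synthesis, averaged 15.8 ± 5.74 and 7.35 ± 2.37 CPM in camta6-5 NaCl and camta6-5 control, against 34.3 ± 6.56 and 13.4 ± 7.13 CPM in wild-type NaCl and wild-type control. The call of GSTF6 in camta6-5 (1.1 ± 0.38, edgeR adjusted p = 0.0275) was lost in 5 of 22 alternatives, as was that of GSTF7 (2.06 ± 0.73, edgeR adjusted p = 0.029). For both genes these were limma voom and the fits without 1 of 4 single camta6-5 libraries. GSTF7 ran from 0.766 to 7.63 CPM among the wild-type control libraries alone.

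The transcripts of GSTF2 and GSTF3 align at 93.4% identity over 943 bases, and those of GSTF6 and GSTF7 at 92.6% over 892 bases, with identical stretches of up to 74 and 116 bases. GSTT2 and GSTT3 align at 91.0% over 1667 bases. How reads that fit several genes were counted is not stated in the sources used here, so the split within these pairs is uncertain. The library kit does not mark strand, so reads of a gene and of an overlapping neighbour cannot be told apart either. Among tested members, GSTF8, GSTL2 and GSTU7 overlap another gene in the table's coordinates. The neighbours of GSTF8 and GSTU7 had at most 0.311 CPM on average in any group, while PGPS2 beside GSTL2 averaged 22.5, 20, 21 and 20 CPM in camta6-5 NaCl, camta6-5 control, wild-type NaCl and wild-type control. In the RefSeq annotation alone, the tested members GSTF2, GSTF10, GSTL3, GSTU10 and GSTZ1 also overlap a neighbour. TOC159 beside GSTF2 averaged at least 768 CPM in each group, and AT5G02800 beside GSTL3 averaged 9.14 to 18.7 CPM over the groups. AT1G74580 and PCMP-E69 beside GSTU10 averaged 7.98 to 10.7 and 11.3 to 12.4 CPM. AT2G30880 beside GSTF10 averaged 18.3 to 20.5 CPM, and AT2G02400 beside GSTZ1 2.74 to 6.86 CPM. The values of these members are therefore uncertain.

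The theta, zeta and lambda classes each had 1 leading gene. GSTZ1 (AT2G02390, chr2:628899-631114), the maleylacetoacetate isomerase of tyrosine breakdown, had 37.9, 34.1 and 39.2 CPM in camta6-5 NaCl and 15.9, 14.2 and 12.3 CPM in camta6-5 control, against 58.7, 62.7 and 52.9 CPM in wild-type NaCl and 12.6, 13.1 and 9.76 CPM in wild-type control. The NaCl groups were above both control groups and apart from each other, and the control groups overlapped. The log2 change was 1.39 ± 0.12 in camta6-5 (edgeR adjusted p = 1.65e-06) and 2.30 ± 0.12 in wild type (edgeR adjusted p = 3.06e-09).

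GSTT1 (AT5G41210) had 78.6, 72.4 and 83.6 CPM in camta6-5 NaCl and 78.4, 68.5 and 63.8 CPM in camta6-5 control, against 58.8, 58.3 and 63.5 CPM in wild-type NaCl and 69.0, 66.4 and 55.2 CPM in wild-type control. NaCl and control libraries overlapped in both genotypes, and no NaCl change passed the test (edgeR adjusted p = 0.197 in camta6-5 and 0.475 in wild type). The nearby GSTT2 rose in both genotypes, by 0.36 ± 0.099 log2 in camta6-5 and 0.81 ± 0.098 in wild type. GSTT3, which lies between GSTT1 and GSTT2, rose in wild type by 0.60 ± 0.13. The camta6-5 call of GSTT2 was lost only without the 5 libraries high in 18S rRNA (log2 0.42). GSTL2 (AT3G55040), a plastid lambda enzyme, had 26.5, 29.4 and 23.9 CPM in camta6-5 NaCl and 30.6, 27.9 and 24.2 CPM in camta6-5 control, against 15.3, 13.9 and 17.9 CPM in wild-type NaCl and 28.4, 24.5 and 21.7 CPM in wild-type control. Only its wild-type NaCl libraries stood apart, and its log2 change was -0.05 ± 0.12 in camta6-5 (edgeR adjusted p = 0.761) and -0.66 ± 0.13 in wild type (edgeR adjusted p = 0.000322). GSTL3 stayed between 0.695 and 1.41 CPM in all libraries.

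The members lie largely in tandem. With gaps of at most 10 kb, 34 of the 48 genes fell into 11 clusters, the largest being the 7 tau genes GSTU7 to GSTU1 over 14.5 kb of chromosome 2 and the 5 genes GSTU23 to GSTU19 over 20.5 kb of chromosome 1. Neighbours did not always move the same way. In the cluster of 3 genes GSTU24, GSTU25 and GSTU26, which spans 6.7 kb of chromosome 1, the first rose in wild type and the other 2 fell. GSTU25, whose enzyme also acts on trinitrotoluene, averaged 0.334 ± 0.0436 and 0.678 ± 0.228 CPM in camta6-5 NaCl and camta6-5 control, against 0.143 ± 0.0545 and 0.713 ± 0.189 CPM in wild-type NaCl and wild-type control. GSTU26 had 7.6, 6.49 and 6.60 CPM in camta6-5 NaCl and 13.5, 13.4 and 15.4 CPM in camta6-5 control, against 2.64, 2.52 and 2.73 CPM in wild-type NaCl and 11.6, 13.1 and 12 CPM in wild-type control. The log2 changes of GSTU25 and GSTU26 were -1.02 ± 0.35 and -1.03 ± 0.097 in camta6-5, and -2.29 ± 0.39 and -2.21 ± 0.11 in wild type. Both wild-type calls held under each alternative run, but the camta6-5 call of GSTU25 was lost with DESeq2 (adjusted p = 0.052), without the 5 libraries high in 18S rRNA (-0.21, adjusted p = 0.856) and without 4 single camta6-5 libraries.

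Likewise GSTU19 and GSTU22 rose and GSTU20, which lies between them, fell in wild type. In the 7-gene cluster GSTU7, GSTU4, GSTU2 and GSTU1 rose and GSTU5 fell in wild type, and GSTU3 and GSTU6 were too low to test. GSTF9 and GSTF10, which span 3.6 kb of chromosome 2, fell together. GSTT2 and GSTT3 rose in wild type beside GSTT1, which did not pass the test, over 8.5 kb of chromosome 5.

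**Figure D5:**
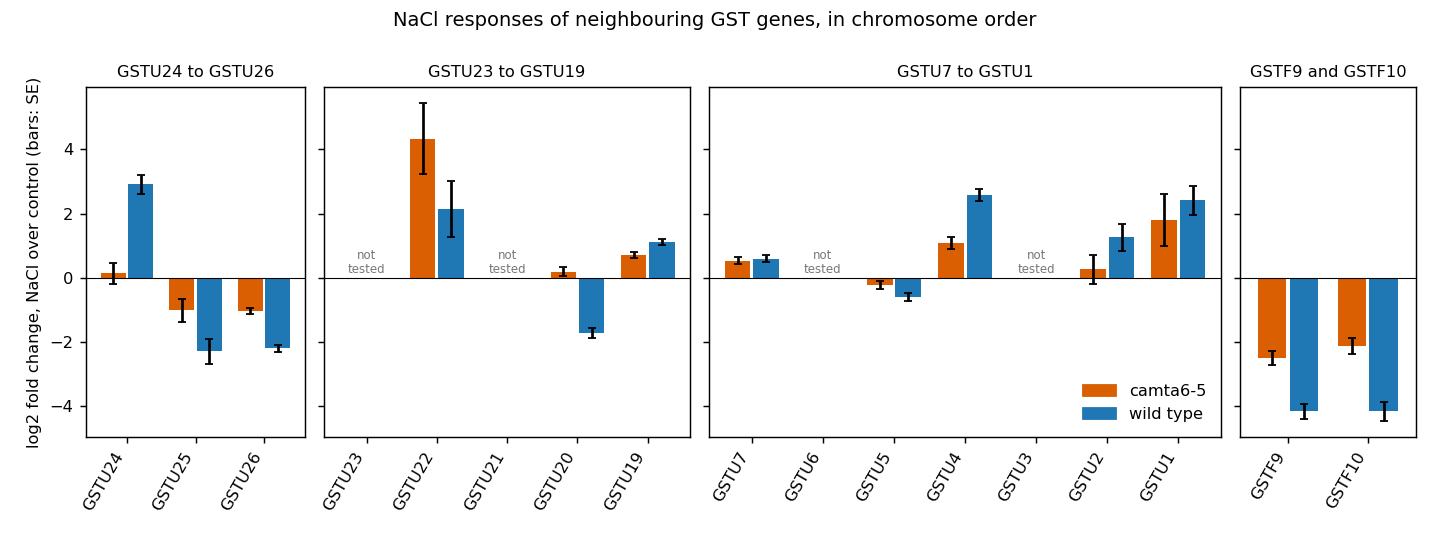
Log2 fold change, NaCl over control, in camta6-5 and wild type for the genes of 4 tandem clusters in chromosome order, with SE bars. In wild type GSTU24 is at 2.91 beside GSTU25 at -2.29, and GSTU20 at -1.72 beside GSTU19 at 1.11, while GSTF9 and GSTF10 are both at -4.17.

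The 250 bases before the start of 6 genes are shown because neighbours with opposite or shared responses, and the gene with the deepest fall, can be compared in them. They were read from the TAIR10.1 assembly of RefSeq, whose nuclear sequence is that of TAIR10, 5′ to 3′ on the strand of the gene, ahead of the more upstream of the table's and the annotation's start. Capitals mark the as-1 core TGACG, the core ACGTG of the abscisic acid response element and the bare letters CGCG, each searched on both strands. CGCG is the core of the CAMTA box, whose flanking bases were not searched. The windows are chr1:5869293-5869542, chr1:5871774-5872023 and chr1:5875045-5875294 for GSTU24, GSTU25 and GSTU26, chr2:13138632-13138881 and chr2:13141040-13141289 for GSTF9 and GSTF10, all on the plus strand, and chr3:2849687-2849936 on the minus strand for GSTU8.
GSTU24: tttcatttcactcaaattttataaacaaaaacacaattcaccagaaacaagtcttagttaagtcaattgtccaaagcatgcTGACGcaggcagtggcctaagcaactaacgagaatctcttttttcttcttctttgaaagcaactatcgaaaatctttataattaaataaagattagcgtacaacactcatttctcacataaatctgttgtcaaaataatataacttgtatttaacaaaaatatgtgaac
GSTU25: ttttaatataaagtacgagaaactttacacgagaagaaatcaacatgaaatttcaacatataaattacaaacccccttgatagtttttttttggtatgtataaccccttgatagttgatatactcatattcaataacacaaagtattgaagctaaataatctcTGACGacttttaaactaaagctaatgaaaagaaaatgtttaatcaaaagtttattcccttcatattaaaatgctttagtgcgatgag
GSTU26: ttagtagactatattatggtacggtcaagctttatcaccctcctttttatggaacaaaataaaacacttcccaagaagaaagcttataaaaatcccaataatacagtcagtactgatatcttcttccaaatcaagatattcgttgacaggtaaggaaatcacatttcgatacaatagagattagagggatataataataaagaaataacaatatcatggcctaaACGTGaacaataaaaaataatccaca
GSTF9: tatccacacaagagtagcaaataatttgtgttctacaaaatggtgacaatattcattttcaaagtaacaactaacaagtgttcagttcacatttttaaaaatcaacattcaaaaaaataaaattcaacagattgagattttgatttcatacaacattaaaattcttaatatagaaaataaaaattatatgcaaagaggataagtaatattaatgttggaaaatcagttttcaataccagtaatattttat
GSTF10: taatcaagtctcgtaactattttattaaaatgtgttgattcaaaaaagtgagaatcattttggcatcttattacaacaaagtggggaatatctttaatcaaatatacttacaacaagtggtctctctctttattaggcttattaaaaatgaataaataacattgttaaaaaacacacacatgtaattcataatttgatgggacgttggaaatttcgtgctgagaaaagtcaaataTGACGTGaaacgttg
GSTU8: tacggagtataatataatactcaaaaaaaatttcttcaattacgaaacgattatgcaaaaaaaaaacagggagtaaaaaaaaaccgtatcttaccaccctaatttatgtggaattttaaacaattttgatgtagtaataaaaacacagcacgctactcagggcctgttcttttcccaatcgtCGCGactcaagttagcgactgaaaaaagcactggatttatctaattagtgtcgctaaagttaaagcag

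GSTU24 and GSTU25 both hold 1 as-1 core although they moved in opposite directions in wild type, and GSTU26 holds 1 ABRE core. GSTF9 holds none of the 3 motifs. GSTF10 holds the run TGACGTG, in which an as-1 core and an ABRE core overlap, close to the end of the window. GSTU8 holds 1 CGCG, whose flanking bases were not matched to the CAMTA box. Over the family, 15 of 48 windows (31.2%) held the as-1 core, 17 (35.4%) the ABRE core and 3 (6.25%) the CGCG, which belong to GSTF6, GSTF13 and GSTU8. The shares over 32834 windows of genes in the table were 18.2, 21.6 and 10.4%. A match of letters is a description of the window and not a site, and duplicated genes share sequence.

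Without NaCl 1 GST gene was called between the genotypes in the unblocked edgeR fit. Set against wild-type control, camta6-5 control had GSTU13 higher and no tested member lower past the threshold in edgeR (0 of 35), beside 0.0864 and 0.130% of all genes called higher and lower. At an unadjusted edgeR p under 0.05, 2 members were higher and 5 lower, beside 2038 of all 18515 tested genes in either direction. DESeq2 called 1 member lower, GSTU20 (-0.56, adjusted p = 0.0356). The edgeR fit with the replicate block also called GSTU20 lower (-0.56, adjusted p = 0.0408), against an edgeR adjusted p of 0.188 without the block. Whether the replicate numbers pair the control libraries was not established. All 3 camta6-5 control libraries lay below all 3 wild-type control libraries for GSTU20, so its direction would be the same under any pairing. GSTU13 (AT1G27130, chr1:9425460-9426886), whose enzyme takes part in indole glucosinolate breakdown, had 57.5, 51.8 and 61.5 CPM in camta6-5 NaCl and 40.1, 49.5 and 38.1 CPM in camta6-5 control, against 45.4, 45.7 and 41.9 CPM in wild-type NaCl and 28.6, 28.2 and 27.8 CPM in wild-type control. Each camta6-5 group lay above the wild-type group of the same treatment. The difference without NaCl was 0.59 ± 0.097 log2 (edgeR adjusted p = 0.022), higher in 3 of 3 libraries, and adjusted p lay above the threshold in 7 of 22 alternatives, up to 0.17. Those 7 included leaving out any single wild-type control library or camta6-5 control replicate 1.

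Under NaCl 12 members were higher and 9 lower in camta6-5 than in wild type, which are 34.3 and 25.7% of the tested members beside 33.8 and 28.5% of all genes. Shares near those of all genes say nothing particular of the family. The higher ones were 7 tau genes (GSTU5, GSTU8, GSTU13, GSTU14, GSTU20, GSTU25 and GSTU26), GSTF8, GSTF9, GSTF10, GSTL2 and GSTT1. GSTU8 differed most, by 4.0 ± 0.14 log2 (edgeR adjusted p = 3.3e-09), followed by GSTF10 with 2.22 ± 0.31 and GSTF8 with 2.07 ± 0.22. The lower ones were GSTU1, GSTU2, GSTU4, GSTU16, GSTU19, GSTU24, GSTF6, GSTT2 and GSTZ1. GSTU24 differed by -3.11 ± 0.29 (edgeR adjusted p = 1.56e-06) and GSTU1 by -3.09 ± 0.49 (edgeR adjusted p = 0.000115). GSTU1 averaged 0.239 ± 0.147 CPM in camta6-5 NaCl against 2.02 ± 0.699 CPM in wild-type NaCl. The call of GSTF6 (-1.12 ± 0.36, edgeR adjusted p = 0.0156) was lost without camta6-5 NaCl replicate 1, and GSTU2 (-1.01 ± 0.41, edgeR adjusted p = 0.0468) lost its call in 10 of 21 alternatives. The calls of GSTU25 (1.19 ± 0.43, edgeR adjusted p = 0.0279) and GSTU19 (-0.25 ± 0.091, edgeR adjusted p = 0.0276) were lost in 6 of 20 and 5 of 22 alternatives, for GSTU25 with DESeq2 too (adjusted p = 0.068). GSTF2, GSTF3 and GSTU9 did not pass (edgeR adjusted p = 0.735, 0.347 and 0.284), but without camta6-5 NaCl replicate 3 they were lower in camta6-5, at -0.68, -1.37 and -1.72 (adjusted p = 0.0146, 9.75e-05 and 0.00314). For GSTF2 the direction turned with the libraries kept, since without the 5 libraries high in 18S rRNA it was higher in camta6-5 (0.56, adjusted p = 0.0299).

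The interaction, the NaCl response in camta6-5 minus that in wild type, was tested directly. It was positive for 7 members and negative for 7, which is 20% each, beside 27.1 and 21.0% of all genes. Since it uses the same libraries as the NaCl comparisons, each gene's own responses are given with it. GSTU8 had the largest value, 3.82 ± 0.17 (edgeR adjusted p = 1.37e-07), from responses of -1.17 in camta6-5 and -4.99 in wild type. GSTF8, GSTF10 and GSTF9 had 2.31 ± 0.30, 2.04 ± 0.39 and 1.67 ± 0.30, with responses of -0.99, -2.13 and -2.50 in camta6-5 and -3.29, -4.17 and -4.17 in wild type. GSTU20 had 1.9 ± 0.20, GSTU26 1.18 ± 0.14 and GSTL2 0.61 ± 0.18. In each of these 7 genes the wild-type change was a fall and the camta6-5 estimate lay closer to 0. The wild-type change enters the interaction with a minus sign, so positive values lean to such genes by construction. The share of all genes with this pattern is not given here.

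Negative values were largest for GSTU24, at -2.78 ± 0.43 (edgeR adjusted p = 0.000238), from responses of 0.13 in camta6-5 and 2.91 in wild type. GSTU4 and GSTU16 followed with -1.49 ± 0.26 and -1.30 ± 0.23, and GSTZ1 with -0.91 ± 0.17. GSTU19, GSTT2 and GSTT3 had -0.40 ± 0.13, -0.45 ± 0.14 and -0.47 ± 0.18. A negative value means by definition a larger estimate in wild type than in camta6-5. The value of GSTT3 (edgeR adjusted p = 0.0448) lost its call in 12 of 21 alternatives and was -0.04 without the 5 libraries high in 18S rRNA. Those of GSTL2 and GSTT2 were lost without these 5 libraries only (0.30, adjusted p = 0.35, and -0.45, adjusted p = 0.18). GSTF2, GSTF3 and GSTF6 rose in both genotypes, and their interaction values of 0.71 ± 0.47, 0.27 ± 0.87 and -0.27 ± 0.53 did not pass the test. Without the 5 libraries high in 18S rRNA the value of GSTF2 passed, at 1.36 (adjusted p = 0.015).

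Genes that supply, use and clear glutathione and its conjugates were described from a list of 39, of which 33 were tested. The list also holds 4 regulators of detoxification genes, all tested, and 4 late anthocyanin genes, none of them tested. The counts that follow include these regulators. Under NaCl 12 rose and 6 fell in camta6-5, 13 rose and 14 fell in wild type, and under NaCl camta6-5 was higher than wild type at 15 and lower at 13. The interaction was positive at 15 and negative at 10. The shares of all genes called higher and lower are 28.2 and 27.5% for NaCl in camta6-5, 37.9 and 39.6% for NaCl in wild type, 33.8 and 28.5% for camta6-5 against wild type under NaCl, and 27.1 and 21.0% for the interaction. The transcription factors TGA2, TGA5 and TGA6 and their partner SCL14, which act on detoxification genes through as-1 elements, rose in both genotypes, and their summed level was 127 to 153 CPM in camta6-5 NaCl and 81.2 to 93.6 in camta6-5 control, against 186 to 226 in wild-type NaCl and 86.2 to 92.0 in wild-type control. All 4 had negative interaction values, from -0.86 (TGA5) to -0.39 (TGA6).

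ABCC3, a vacuolar pump for glutathione conjugates, averaged 161 ± 13.2 CPM in camta6-5 NaCl and 75.8 ± 8.92 in camta6-5 control, against 374 ± 49.8 in wild-type NaCl and 80.3 ± 4.54 in wild-type control. Its interaction value was -1.14 (edgeR adjusted p = 8.75e-05). Microsomal MGST rose in both genotypes. Of the 7 glutathione peroxidase genes tested, 2 rose and 2 fell in camta6-5, and 3 rose and 4 fell in wild type. GPX6 rose in both, by 0.88 in camta6-5 and 1.44 in wild type, while GPX2 (-0.84 and -1.60) and GPX8 (-0.48 and -2.27) fell in both. Of the dehydroascorbate reductases, relatives of the GSTs, DHAR1 averaged 65.7 ± 10.9 and 41.3 ± 4.54 CPM in camta6-5 NaCl and camta6-5 control, against 26.5 ± 2.06 and 39.9 ± 1.39 CPM in wild-type NaCl and wild-type control. Its log2 change was 0.67 in camta6-5 and -0.59 in wild type, both past the threshold (edgeR adjusted p = 0.000277 and 0.000333). DHAR2 fell in both genotypes, by -0.35 in camta6-5 and -1.60 in wild type, and DHAR3 had 0.00 in camta6-5 (edgeR adjusted p = 0.997) and fell in wild type by -0.52. GSH1, the first enzyme of glutathione synthesis, had NaCl changes of -0.14 in camta6-5 and 0.06 in wild type that did not pass (edgeR adjusted p = 0.0987 and 0.399). GGP1, a peptidase linked to the processing of glutathione conjugates, fell in both, to 17.6 ± 2.41 CPM in camta6-5 NaCl, against 57.7 ± 4.58 in camta6-5 control, and to 6.31 ± 0.191 CPM in wild-type NaCl, against 51.7 ± 3.88 in wild-type control. Without NaCl, GGCT2;1, which breaks down glutathione, was the 1 listed gene called, with 3.87 ± 0.447 CPM in camta6-5 control against 1.39 ± 0.0529 CPM in wild-type control.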

How the data were processed

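RNA from pre-germinated seedlings was sequenced in 12 libraries (4 groups of 3) prepared with a kit that does not mark strand. The deposited table holds raw counts per gene, as whole numbers, made by the authors on TAIR10 with a set of tools that includes DESeq2 1.10.0, HTSeq 0.6.1, TopHat2 2.1.0, Bowtie2 2.2.6 and cutadapt 1.9, per the submitters' processing notes; settings are not given in the sources used here.

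Groups were taken from the sample titles. Counts were analysed with edgeR 4.0.16 in R 4.3.3: filterByExpr (minimum count 10, minimum total 15) left 18515 genes, TMM factors scaled the libraries, and 1 quasi-likelihood model over the 12 libraries (8 residual degrees of freedom) gave 5 two-sided comparisons, adjusted by Benjamini-Hochberg over all tested genes with a threshold of 0.05. The SE of a log2 change was derived from the test. CPM carry TMM scaling, and CPM per kb use exon lengths of the RefSeq annotation. The fit was tested on simulated data. No pair of replicates agreed within sampling noise. Same-numbered libraries of the control groups deviated together over genes (correlations of 0.26, 0.148 and 0.352). Wild-type control replicate 2 correlated more with camta6-5 control replicate 1 (0.23), and the labels state no pairing, so a pairing by number was not established. In the other comparisons at least 1 same-numbered pair correlated at 0.1 or less. Alternatives were DESeq2 1.42.0, limma 3.58.1 voom, other scalings, filters and samples, a replicate block and leaving out each library.

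Gene intervals of the table and annotation overlapped for 32834 of 32835 matched loci, of which 18638 share an exact start or end. Transcripts were aligned with BLAST, and windows of 250 bases before gene starts were scanned for motifs.

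Genes named were the 5 largest rises and falls of each comparison among called members whose 3 libraries did not overlap and whose higher group averaged at least 5 CPM (the library condition dropped for the interaction), the most abundant genes and tandem neighbours of opposite sign; other members are named to account for the family, and the genes of the glutathione list were picked after their values were seen. The members, the gene lists and the marker lists were chosen with earlier results of these data known.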

Additional observations from a re-analysis of the deposited data

Results flagged for a closer look

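The NaCl response of 14 GST genes differed between camta6-5 and wild type by the interaction test (edgeR, adjusted p over all tested genes), beside 27.1% of all genes with a positive and 21.0% with a negative value past the threshold. It was more positive in camta6-5 for GSTU8 (3.82), GSTF8 (2.31), GSTF10 (2.04), GSTU20 (1.9), GSTF9 (1.67), GSTU26 (1.18) and GSTL2 (0.61), in log2 units of camta6-5 minus wild type. It was more negative in camta6-5 for GSTU24 (-2.78), GSTU4 (-1.49), GSTU16 (-1.30), GSTZ1 (-0.91), GSTT3 (-0.47), GSTT2 (-0.45) and GSTU19 (-0.40). Adjusted p ran from 1.37e-07 for GSTU8 to 0.0448 for GSTT3. The call of GSTT3 was lost in 12 of 21 alternatives.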

How the results depend on the processing

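Without the 5 libraries richest in 18S rRNA, risen and fallen members lost calls in camta6-5 under NaCl, as listed above. GSTU13 lost its call in camta6-5 against wild type without NaCl (log2 0.81). That fit leaves 1 library in each camta6-5 group, which is assumed to vary like the others. The GSTU13 call without NaCl was also lost with only the 2 groups in the fit. DESeq2 and the fit with the replicate block each called 1 member lower there instead of 0, in both cases GSTU20. Leaving out single libraries gave 11 to 17 higher and 7 to 8 lower in camta6-5 under NaCl, 16 to 18 and 11 to 11 in wild type under NaCl, 0 to 1 and 0 to 0 for camta6-5 against wild type without NaCl, 11 to 13 and 6 to 12 with NaCl, and 7 to 8 and 6 to 8 for the interaction. For the genes taken by the naming rule, 49 results were refitted 1066 times in all: 1037 refits kept direction and call, 29 lost the call and 0 turned sign. That rule favours large changes, so the tally does not describe all calls. Outside it, GSTU10 lost its camta6-5 NaCl call in 8 of 22 alternatives. GSTU2 lost its call between genotypes under NaCl in 10 of 21. Same-numbered libraries correlated from -0.284 to 0.352, over 0.1 in 8 of 18 pairs, and a pairing by number was not established. Beside the GSTU20 call, the block moved the interaction of GSTT3 to an edgeR adjusted p of 0.0506. At this depth the 13 genes without a test, at most 14 counts in a library, allow no statement on NaCl or genotype.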

Other observations

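Some members varied widely among replicates. Within camta6-5 NaCl, 7 tested genes spanned over 3-fold (GSTF3, GSTF7, GSTU1, GSTU2, GSTU9, GSTU11 and GSTU22), within camta6-5 control 5, within wild-type NaCl 0 and within wild-type control 6. In camta6-5 NaCl replicate 3 was the highest for all 7 of these genes. The share of all tested genes spanning over 3-fold was not counted. In camta6-5 NaCl GSTU1, GSTU2 and GSTU11 averaged only 0.239, 0.46 and 0.544 CPM, where counting error widens a span. GSTF3, GSTF7, GSTU9 and GSTU22 averaged 3.15 to 6.37 CPM there. GSTF7 had 1.77, 7.63 and 9.71 CPM in camta6-5 NaCl, 2.30, 1.60 and 0.631 in camta6-5 control, 10.5, 9.95 and 6.25 in wild-type NaCl and 0.766, 7.63 and 7.24 in wild-type control. An SD of log2 CPM was also taken after a constant was added to CPM, which shrinks the spread of genes at low CPM. The median member stood at the 74.2, 79.4, 73.0 and 79.9 percentile of this SD over all tested genes. These percentiles are for camta6-5 NaCl, camta6-5 control, wild-type NaCl and wild-type control.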
